A study of Capra hircus with 3 samples.

Results

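The imprinted growth network genes DLK1, PEG3, MEST, PLAGL1, CDKN1C, GRB10 and SGCE were followed in goat (Capra hircus) longissimus dorsi, a muscle of the back, by RNA sequencing at 3 stages, namely kid at 2 months, youth at 9 months and adult at 24 months of age. For each stage 1 library was sequenced, and no treatment or genotype is named for any stage. The sources used here do not say how many animals a library holds, nor their sex or breed. Of the 7 genes, 6 had an entry among the 24689 of the deposited table. MEST, PLAGL1, GRB10 and SGCE were found by their product text and 2 by gene number, since the table describes PEG3 as "paternally-expressed gene 3 protein-like" and DLK1 only as an uncharacterized locus, 102180161. No entry matched CDKN1C, an inhibitor of cyclin-dependent kinases, which was not analysed here. The entry with the product text "delta-like 1 (Drosophila)" is the Notch ligand DLL1 and not DLK1.

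Imprinted genes are expressed mainly from the copy inherited from one parent. Many act on growth before and shortly after birth, and in mice a set of them, which includes the genes above, is coexpressed and declines after birth in several organs. DLK1 is a membrane protein of the Delta/Notch family that can be shed from the cell; it holds back fat-cell differentiation, and its overexpression enlarges the muscles of callipyge sheep. PLAGL1 and PEG3 are zinc finger transcription factors, GRB10 is an adaptor that dampens signalling from the insulin and IGF1 receptors, MEST resembles hydrolase enzymes, and SGCE is a sarcoglycan, a membrane protein of the complex that joins the cytoskeleton to the matrix.

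A single library per stage leaves no replicate check, so no difference was tested, and what follows compares libraries and not stages. Levels are in FPKM, in which reads are divided by the length of the gene and by the library's total, so levels of different genes can be compared. The library totals recovered from the values were 15829474 reads in kid, 14920689 in youth and 18399385 in adult. Each ratio is given with an exact 95% interval of the reads behind it, which covers counting error only. The muscle label held in every library: 11 muscle fibre genes summed to 56560 FPKM in kid, 66965 FPKM in youth and 73711 FPKM in adult. Of the 11, 9 were higher in adult than in kid, against 37.5% of all entries with a mean of at least 1 FPKM. A protocol text speaks of mammary tissue instead. Of 9 mammary genes with an entry, 8 were listed at 0 in all 3 libraries, and KRT18, a keratin of many epithelia, was at 3.11, 1.44 and 1.17 FPKM in kid, youth and adult.

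DLK1, PEG3, PLAGL1 and SGCE had their lowest level in the adult library, MEST had its lowest level in the youth library, and GRB10 was nearly level. From kid to youth to adult, the 6 genes together stood at 59.5, 58.9 and 51.1 FPKM. GRB10 made up most of that sum in each library, so the sum says little about the other genes.

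**Figure D1:**
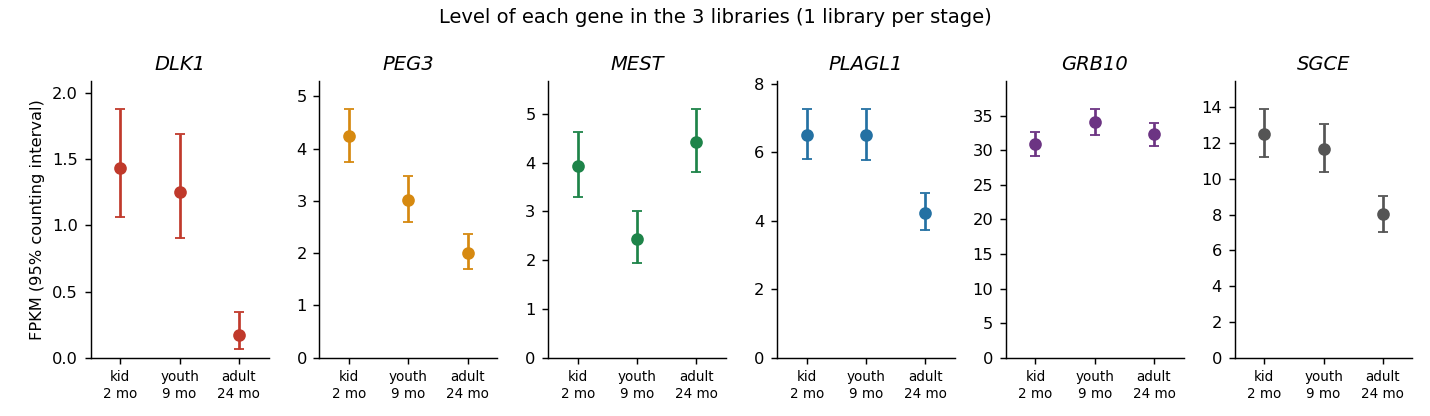
FPKM of each gene (vertical axes, from 0, with a scale of their own) in the kid, youth and adult libraries (horizontal axes); bars are 95% counting intervals of 1 library each, not errors between animals. The adult points of DLK1, PEG3, PLAGL1 and SGCE, at 0.169, 2.01, 4.24 and 8.01 FPKM, are the lowest of their panels.

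DLK1 had the largest ratio between libraries among the 6 genes. It stood at 1.43 FPKM in kid from 51 reads, at 1.25 FPKM in youth from 42 reads and at 0.169 FPKM in adult from 7 reads. The adult library was low, and kid and youth did not differ beyond counting error. Adult was 8.47-fold lower than kid (interval 3.83 to 22.1) and 7.40-fold lower than youth (3.29 to 19.5), while the ratio of youth to kid was 0.874 (0.567 to 1.34). DLK1 was also the least abundant of the 6 genes in each library. Its mean of 0.950 FPKM was below the minimum of 1 FPKM used for counts over all entries, so it enters no count of tested genes. Its length in the table, recovered from the steps, was 2252 bases.

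PEG3 was lower at both steps beyond counting error, which no other of the 6 genes was. It stood at 4.23 FPKM in kid, 3.02 FPKM in youth and 2.01 FPKM in adult, from 277, 186 and 153 reads. Adult was 2.10-fold lower than kid (1.72 to 2.58). The ratio of youth to kid was 0.712 (0.588 to 0.861), and that of adult to youth was 0.667 (0.535 to 0.831). Its kid library was the highest and its adult library the lowest, with no overlap between the 3 counting intervals.

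PLAGL1, which in mice can activate other genes of the network, including Cdkn1c, had nearly the same value in kid and youth. It stood at 6.52 FPKM in kid (316 reads), 6.50 in youth (297 reads) and 4.24 in adult (239 reads). Adult was 1.54-fold lower than kid (1.30 to 1.83) and 1.53-fold lower than youth (1.29 to 1.82), against a youth to kid ratio of 0.997 (0.848 to 1.17). Its relatives PLAGL2 and PLAG1, zinc finger factors of the same family, were low: PLAGL2 stood at 1.82, 1.85 and 1.79 FPKM in kid, youth and adult, and PLAG1 at 0.562, 0.318 and 0.161 FPKM from 15, 8 and 5 reads.

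SGCE had the same shape as PLAGL1. It stood at 12.5 FPKM in kid, 11.7 FPKM in youth and 8.01 FPKM in adult, from 340, 299 and 253 reads. Adult was 1.56-fold lower than kid (1.32 to 1.85) and 1.46-fold lower than youth (1.23 to 1.73), and the ratio of youth to kid was 0.933 (0.796 to 1.09). Only the adult library was low. SGCA, SGCB and SGCD, sarcoglycans of the muscle fibre membrane, were more abundant and closer to level. SGCA stood at 102, 103 and 95.4 FPKM in kid, youth and adult, SGCB at 49.1, 57.4 and 45.9 FPKM, and SGCD at 26.1, 30.2 and 25.1 FPKM. The ratio of adult to kid was 0.640 for SGCE, against 0.934 for SGCA, 0.935 for SGCB and 0.963 for SGCD, and the difference between SGCE and the others was not tested. Dystrophin (DMD), the rod that ties the complex to actin, was at 83.1, 64.0 and 55.6 FPKM, and the syntrophin SNTB1 at 58.0, 54.6 and 33.4 FPKM in that order. In adult against kid, 9 of 12 tested genes of this complex, SGCE left out, were lower, with a median difference of log2(FPKM + 1) of -0.10, but only 5 of 12 with size factors (median 0.03). Of all tested entries, 62.5% were lower in adult than in kid, and 47.5% with size factors. SNTB1 was the 1 gene of the complex at least 1.5-fold lower on that scale, against 6.64% of all tested entries. SNTB2 stood at 7.31, 8.26 and 4.95 FPKM.

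MEST was low in youth alone. It stood at 3.93 FPKM in kid (142 reads), 2.43 in youth (83 reads) and 4.42 in adult (186 reads). Youth was 1.61-fold lower than kid (1.22 to 2.14), adult was 1.82-fold higher than youth (1.40 to 2.38), and the ratio of adult to kid was 1.13 with an interval that included 1 (0.901 to 1.41). The adult value of MEST was not below the kid value, whereas those of DLK1, PEG3, PLAGL1 and SGCE were. In fat tissue of mice MEST is known to vary with fat expansion. The adipocyte list was also lowest in youth: its summed level was 505 FPKM in kid, 315 FPKM in youth and 375 FPKM in adult, 11 of 12 tested genes were lower in youth than in kid, and 9 of 12 were higher in adult than in youth. The smooth muscle and pericyte list was lowest in youth as well, with sums of 554, 428 and 553 FPKM in kid, youth and adult. Of its 12 tested genes, 11 were lower in youth than in kid and 7 were higher in adult than in youth. The adipocyte sum was lower in adult than in kid, unlike MEST. The tendon and cartilage list had the order of MEST, with sums of 90.6, 85.0 and 125 FPKM. Of its 6 tested genes, 3 were lower in youth than in kid and 4 were higher in adult than in youth. Over all tested entries, 64.3% were lower in youth than in kid and 47.3% were higher in adult than in youth. Of the 13 adipocyte and 12 smooth muscle genes with an entry, 0 were at 0 in all 3 libraries, and the part of these cells in the MEST values was not tested.

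GRB10 was the most abundant of the 6 genes and varied least. It stood at 30.9 FPKM in kid, 34.0 FPKM in youth and 32.3 FPKM in adult, from 1198, 1246 and 1457 reads. Youth was 1.10-fold higher than kid (1.02 to 1.20), and the ratios of adult to kid, 1.05 (0.969 to 1.13), and of adult to youth, 0.948 (0.879 to 1.02), had intervals that included 1. Its relatives GRB14 and GRB7, adaptors with the same domain plan, were scarce, GRB14 at 1.21, 1.45 and 0.817 FPKM and GRB7 at 0.300, 0.255 and 0.103 FPKM in kid, youth and adult. Of the receptors that GRB10 binds, the insulin receptor INSR had an adult to kid ratio of 1.15 (1.08 to 1.21), with 18.4 FPKM in adult. IGF1R stood at 8.41, 7.68 and 5.58 FPKM in kid, youth and adult, with an adult to kid ratio of 0.663 (0.584 to 0.753).

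**Figure D2:**
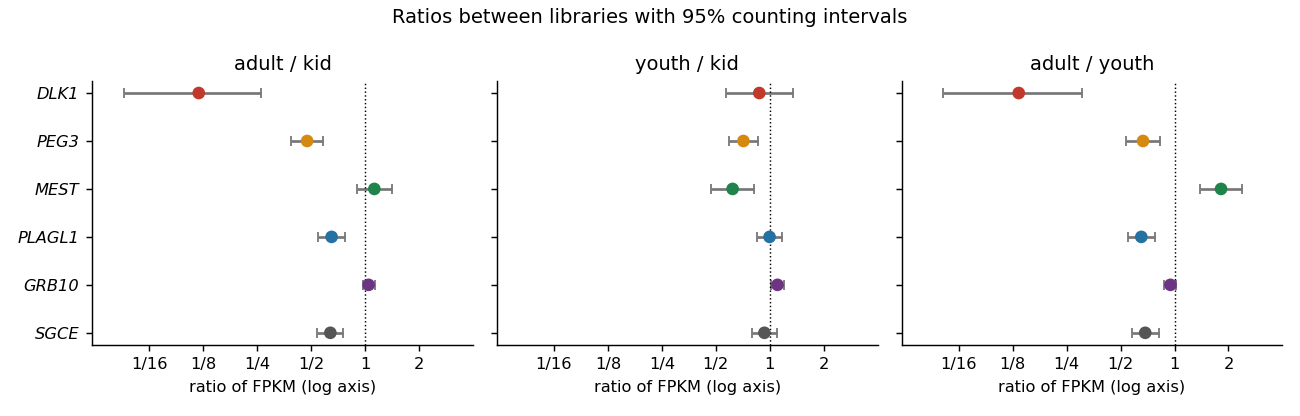
Ratio of FPKM between libraries (horizontal axes, log scale) for the 6 genes, one panel per comparison; bars are exact 95% counting intervals and the dotted line marks equality. In adult over kid, DLK1 (0.118), PEG3 (0.475), SGCE (0.640) and PLAGL1 (0.651) lie below the line with their intervals, while the intervals of MEST and GRB10 cross it.

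The order of the levels was GRB10, SGCE, PLAGL1, PEG3, MEST and DLK1 in both the kid and the youth library. The counting intervals of PEG3 and MEST overlapped in both, and those of all other neighbours in the order did not. In the adult library MEST moved up to stand beside PLAGL1 with overlapping intervals, and PEG3 and DLK1 came last. Among all 24689 entries, GRB10 was above 91.6%, 92.6% and 92.1% of them in kid, youth and adult, and DLK1 above 53.3%, 53.3% and 39.4%.

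Differences beyond counting error were common among all entries. Among 12121 entries with a mean of at least 1 FPKM, the interval of the adult to kid ratio lay below 1 for 34.6% and above 1 for 16.7%, and among the 6 genes it lay below 1 for DLK1, PEG3, PLAGL1 and SGCE and above 1 for 0. In youth against kid the shares were 26.9% below and 11.6% above, with PEG3 and MEST below and GRB10 above. In adult against youth they were 27% and 22.3%, with DLK1, PEG3, PLAGL1 and SGCE below and MEST above. Each pair of these comparisons shares a library, so their values are not independent.

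By size of difference on the log2(FPKM + 1) scale, which understates the differences of low genes, the genes stood out less. DLK1 aside, 0 of 5 were at least 2-fold apart in any comparison, where 1.76% of tested entries were so in adult against kid, 1.05% in youth against kid and 2.08% in adult against youth. Without a minimum level, DLK1 was also 2-fold lower in adult than in kid, at -1.06, as were 0.869% of 18866 entries above 0. PEG3 was the 1 of 5 at least 1.5-fold lower in adult than in kid, at -0.80, and 0 of 5 were that much higher; 6.64% of tested entries were that much lower and 2.6% higher. SGCE, at -0.58, lay just short of 1.5-fold. In youth against kid 0 of 5 were 1.5-fold lower or higher, against 3.77% and 1.5% of tested entries. In adult against youth MEST was the 1 of 5 at least 1.5-fold higher, at 0.66, and 0 of 5 were that much lower, against 5.4% higher and 5.45% lower among tested entries.

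The median difference of the 6 genes, with DLK1 although it was not tested, was -0.55 in adult minus kid, against -0.10 over all tested entries. In youth minus kid it was -0.10, against -0.08, and in adult minus youth it was -0.45, against -0.02. Over the 5 tested genes alone, the medians were -0.52, -0.09 and -0.42 in the same order of comparisons. Size factors moved the median of all tested entries in adult minus kid to 0.02, and the split of entries at least 1.5-fold apart to 507 lower and 581 higher, against 805 lower and 315 higher with FPKM as deposited. Relative to the deposited median of all tested entries, the adult minus kid difference was -0.96 for DLK1, -0.70 for PEG3, -0.49 for SGCE, -0.42 for PLAGL1, 0.16 for GRB10 and 0.23 for MEST. The order of the 6 genes by this difference puts DLK1 lowest and MEST highest.

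**Figure D3:**
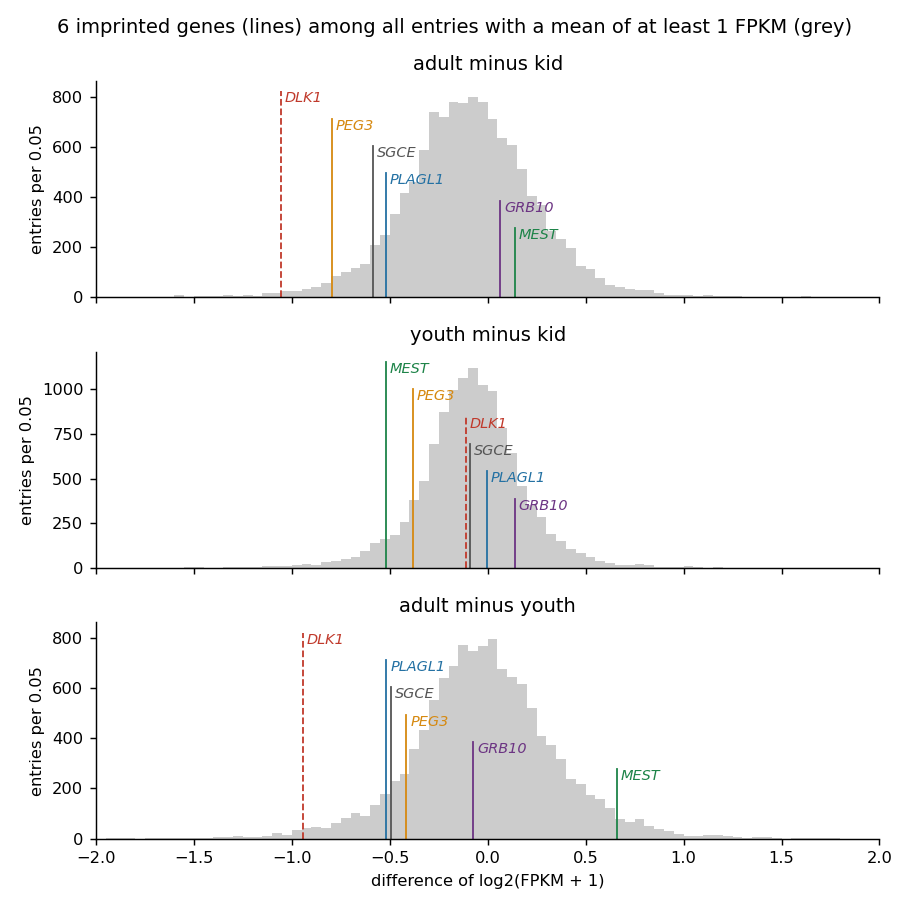
Differences of log2(FPKM + 1) between libraries (horizontal axes) for all 12121 tested entries (grey bars, number of entries per bin), with the 6 genes as coloured lines whose heights only separate the labels (entries beyond the ends of the axis are not drawn); DLK1 is dashed because its mean is below 1 FPKM. In adult minus kid, DLK1 at -1.06 and PEG3 at -0.80 lie in the lower tail, where 1.01% and 2.57% of tested entries are as low or lower.

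By the distance between values of log2(FPKM + 1), each centred on the gene's mean over the 3 libraries, PLAGL1 and SGCE were the most alike of the 15 pairs of these genes, at 0.0649. DLK1 and MEST were the least alike, at 1.18. PEG3 lay nearest to SGCE, at 0.212, and GRB10 nearest to PLAGL1, at 0.431. Among 6833 named entries with a mean of at least 5 FPKM, the nearest to PEG3 were CORO1C, RPL3 and GEM, the nearest to MEST were PNPLA2, SLC25A42 and ACTA2, and the nearest to PLAGL1 were HERPUD2, PROS1 and FBXO32. EHMT1, EPAS1 and RFTN1 lay nearest to GRB10, and EIF4H, YWHAQ and FCER1G nearest to SGCE. These distances ran between 0.0011 for EHMT1 and 0.032 for ACTA2. A likeness over 3 libraries is shared by many genes and describes these libraries alone.

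Imprinted genes lie in clusters, so the genes beside each of the 6 were read in the gene order of the goat assembly ARS1.2, which was used for order and names only. Beside SGCE lies PEG10, a gene derived from a retrotransposon that shares a start region with SGCE in mammals. PEG10 stood at 4.12 FPKM in kid, 3.18 FPKM in youth and 2.91 FPKM in adult (184, 134 and 151 reads), with an adult to kid ratio of 0.706 (0.566 to 0.880). The next named gene on that side, PPP1R9A, a scaffold of the actin skeleton, stood at 4.55, 3.32 and 2.46 FPKM, with a ratio of 0.540 (0.429 to 0.679). On the other side, CASD1 was at 11.1, 10.4 and 9.84 FPKM, and its adult to kid ratio of 0.888 had an interval that included 1 (0.758 to 1.04). SGCE, PEG10 and PPP1R9A were thus each lower in adult than in kid beyond counting error, as were 34.6% of all tested entries. Further out within 4 places, COL1A2 (ratio 0.938) and GNG11 (0.824) were also lower beyond counting error. PON3 was higher, with a ratio of 1.14 (1.05 to 1.25), and the interval of BET1 included 1.

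Beside DLK1, in the region that also holds RTL1, an entry described as similar to WIPF2 (gene 102191280) was far more abundant than DLK1. It stood at 27.6 FPKM in kid, 31.8 FPKM in youth and 18.1 FPKM in adult, and the adult to kid ratio was 0.655 (0.608 to 0.705). RTL1, a retrotransposon-derived gene of the same cluster, was at 0.135, 0.0179 and 0.203 FPKM from 8, 1 and 14 reads. DIO3, the deiodinase that inactivates thyroid hormone and marks the far end of the cluster, was at 1.39, 0.647 and 0.477 FPKM from 25, 11 and 10 reads, with an adult to kid ratio of 0.344 (0.147 to 0.742). DLK1 and DIO3 both had their highest value in kid and their lowest in adult, but not every step lay beyond counting error. DIO3 was lower in youth than in kid, with a ratio of 0.467 (0.207 to 0.984), whereas the interval of DLK1 included 1. From youth to adult DLK1 was lower, whereas the DIO3 ratio of 0.737 had an interval that included 1 (0.281 to 1.91). RTL1 rested on at most 14 reads in a library.

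Near MEST lies COPG2, a coat protein of transport vesicles, at 7.04, 4.74 and 4.96 FPKM in kid, youth and adult. Youth was lower than kid in both genes, but COPG2 stayed low in adult, with an adult to kid ratio of 0.704 (0.594 to 0.834). Around PLAGL1, the actin regulator PHACTR2 was at 7.60, 3.11 and 4.94 FPKM and the ribosome assembly factor LTV1 at 10.1, 9.47 and 8.56 FPKM. Beside GRB10, the decarboxylase DDC, which makes dopamine, was low in youth: the youth to kid ratio was 0.635 (0.546 to 0.737) and the adult to kid ratio 1.03 (0.914 to 1.17). Around PEG3, the zinc finger genes ZIM2 and ZIM3 were at most 0.0837 FPKM in any library. Of all 23 tested entries within 4 places of one of the 7 genes, 16 were lower and 7 higher in adult than in kid (median -0.11), near the 62.5% lower among all tested entries, and 12 were lower and 11 higher with size factors. NAP1L4, a histone chaperone in the CDKN1C cluster, stood at 64.7, 63.1 and 63.6 FPKM in kid, youth and adult.

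**Figure D4:**
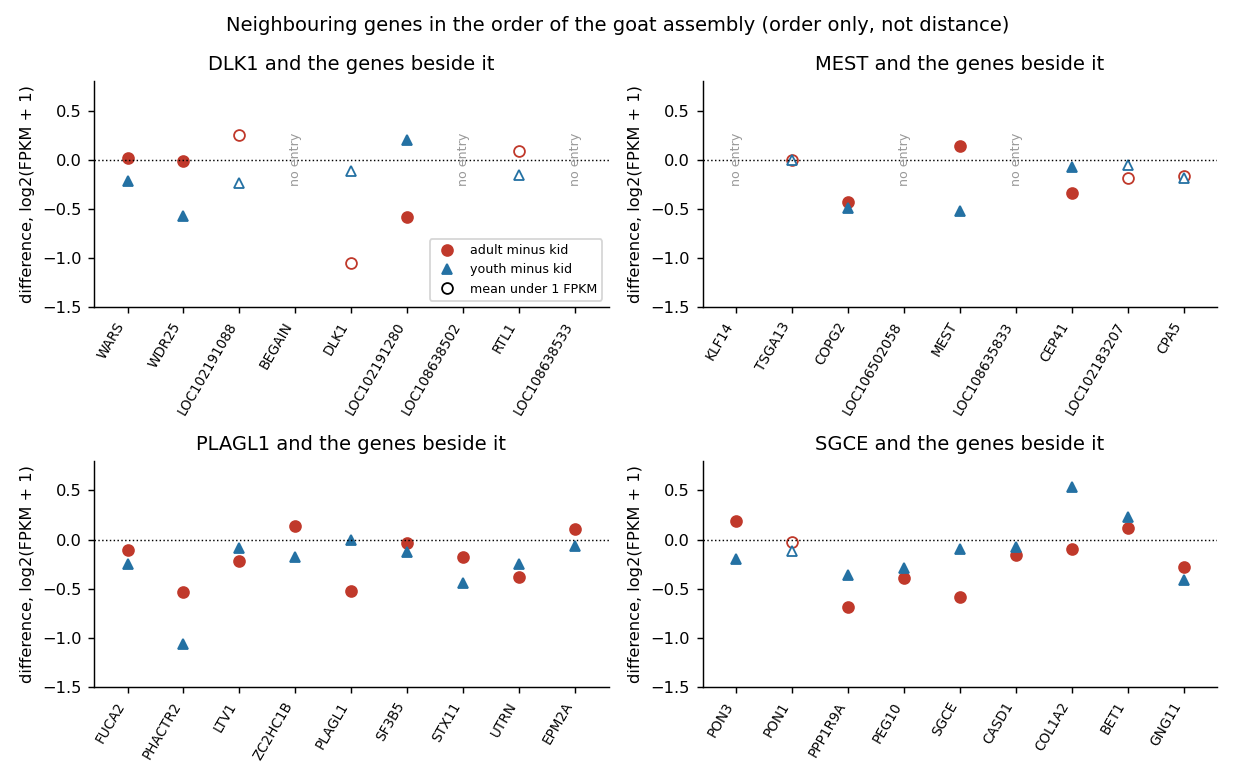
Differences of log2(FPKM + 1) (vertical axes) for the genes on either side of DLK1, MEST, PLAGL1 and SGCE in the gene order of ARS1.2 (horizontal axes, order and not distance); circles are adult minus kid, triangles youth minus kid, and open symbols have a mean under 1 FPKM. In the SGCE panel PPP1R9A (-0.68), PEG10 (-0.39) and SGCE (-0.58) have circles below 0 side by side, while those of PON3 (0.19) and BET1 (0.11) lie above 0.

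Of 52 other genes known to be imprinted in mouse or human, some of them only in certain tissues, 43 had an entry and 28 were tested. In adult against kid 22 were lower and 6 higher, with a median of -0.22, and 4 were at least 1.5-fold lower, of which 1 was 2-fold lower; 0 were 1.5-fold higher. With size factors the split was 17 lower and 11 higher (median -0.11). Of all tested entries, 62.5% were lower in adult than in kid as deposited, and 47.5% with size factors. In youth against kid 21 were lower and 7 higher (median -0.11; 64.3% of all tested entries lower), and in adult against youth 19 were lower and 9 higher (median -0.09; 52.7% lower). The shares of tested entries at least 1.5-fold lower and higher in adult against kid were 6.64% and 2.6%.

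GATM, the enzyme that starts creatine synthesis, was the gene that was 2-fold lower, at 4.13 FPKM in kid, 2.30 FPKM in youth and 1.41 FPKM in adult, with an adult to kid ratio of 0.342 (0.246 to 0.469). RB1, the retinoblastoma protein that restrains the cell cycle, stood at 9.88, 8.29 and 5.28 FPKM, with a ratio of 0.534 (0.463 to 0.616). IGF2, the growth factor of fetal life, was highest in youth, at 36.1, 44.7 and 24.7 FPKM in kid, youth and adult, and its adult to kid ratio was 0.685 (0.612 to 0.766). GNAS, the stimulatory G protein subunit and the most abundant of the list, was at 643, 606 and 544 FPKM. NDN, a growth suppressor of the MAGE family that belongs to the same network in mice, stood at 6.02, 5.77 and 5.90 FPKM, with an adult to kid ratio of 0.981 (0.787 to 1.22). The amino acid transporter SLC38A4 stood at 4.74, 5.68 and 2.91 FPKM, and neuronatin (NNAT) at 31.5, 25.1 and 18.5 FPKM. Among the 6 higher in adult than in kid, ASB4 had a ratio of 1.25 (1.12 to 1.38) and PON3 one of 1.14 (1.05 to 1.25).

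**Figure D5:**
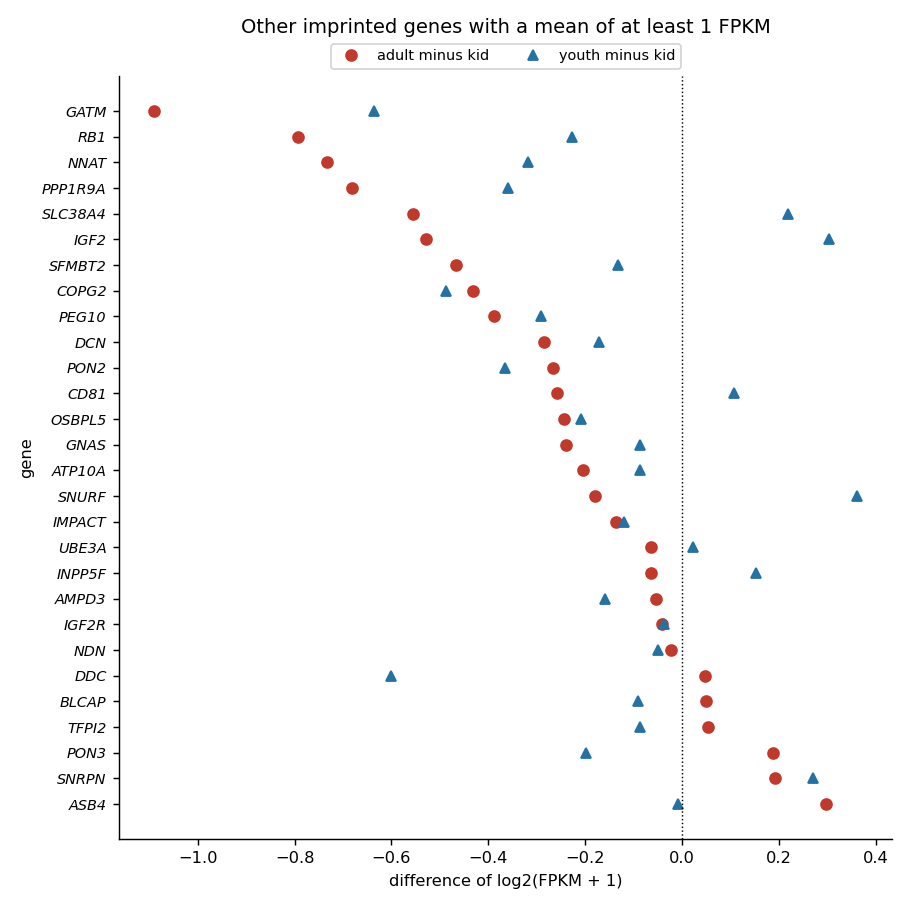
Differences of log2(FPKM + 1) (horizontal axis) for the 28 tested imprinted genes outside the 6 (vertical axis, ordered by adult minus kid); circles are adult minus kid, triangles youth minus kid. The circles run from -1.09 for GATM to 0.30 for ASB4, and 22 of 28 lie below 0.

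Genes of the pathways in which these genes act were described by lists, each read against the 62.5% of all tested entries that were lower in adult than in kid, or 47.5% with size factors. Of 15 tested Notch pathway genes, the family to which DLK1 is related, 13 were lower and 2 higher in adult than in kid (median -0.19), against 9 lower and 6 higher with size factors (median -0.05). The target gene HES1, a repressor of differentiation genes, stood at 35.1 FPKM in kid, 15.8 FPKM in youth and 30.8 FPKM in adult, while HEY1 stood at 9.56, 8.43 and 5.37 FPKM and HEYL at 8.71, 13.9 and 8.42 FPKM. HES1 was low in youth, HEY1 was low in adult, and HEYL was high in youth. The ligand DLL1 was at 7.02, 9.36 and 6.63 FPKM, and DLK2, the close relative of DLK1, was at 0, 0.0509 and 0.0412 FPKM from 0, 1 and 1 reads.

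Of 19 tested genes of insulin and IGF signalling, GRB10 left out, 14 were lower and 5 higher in adult than in kid (median -0.17). With size factors 10 were lower and 9 higher. Against 6.64% of all tested entries at least 1.5-fold lower, 2 of the 19 genes were that much lower. These were IRS1, the docking protein of the insulin receptor, at 12.1, 12.2 and 7.37 FPKM in kid, youth and adult, and PIK3R1, the regulatory subunit of PI3 kinase, at 56.1, 70.1 and 36.1 FPKM. IGF1 stood at 23.8, 12.4 and 15.9 FPKM in that order.

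Of 17 tested genes of cyclin-dependent kinases and the cell cycle, 11 were lower and 6 higher in adult than in kid (median -0.10), but 8 were lower and 9 higher with size factors (median 0.02), both near the shares over all tested entries. In FPKM as deposited, 5 of the 17 were at least 1.5-fold lower, against 6.64% of all tested entries. The kinase inhibitors of the CDKN1C family that had entries were both lower in adult. CDKN1A stood at 65.9, 20.5 and 15.7 FPKM in kid, youth and adult, and CDKN1B at 35.6, 30.7 and 26.2 FPKM. Cyclin D1 (CCND1) was at 4.04, 4.53 and 1.78 FPKM. The proliferation markers MKI67 and TOP2A were under 1 FPKM in every library and so were not among the tested genes. Both were highest in youth and lowest in adult. MKI67 was at 0.233, 0.627 and 0.0976 FPKM and TOP2A at 0.418, 0.851 and 0.146 FPKM in kid, youth and adult. Other genes of the list had other orders. PCNA was highest in kid and lowest in adult, at 10.8, 8.54 and 6.50 FPKM. MCM2, at 1.13, 1.45 and 1.49 FPKM, and CCNE1, at 1.33, 2.29 and 2.10 FPKM, were lowest in kid. DLK1 and PEG3 were lowest in adult, and the part of proliferation in their values was not tested. PEG3 was highest in kid, and DLK1 did not differ between kid and youth beyond counting error.

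Of 13 other genes of the fetal and early growth programme with an entry, 6 were tested. Listed at 0 in all 3 libraries were 4: IGF2BP1, HMGA2, LIN28A and LIN28B. Of the 6 tested, 4 were higher and 2 lower in adult than in kid (median 0.10). HMGA1, an architectural chromatin protein, was the most abundant by its mean over the 3 libraries, at 5.91, 5.57 and 6.70 FPKM in kid, youth and adult. The lower ones were EZH2, the methyltransferase of the Polycomb complex, at 2.90, 2.66 and 1.77 FPKM in kid, youth and adult, and the heparin-binding growth factor PTN at 5.74, 7.14 and 3.85 FPKM. E2F3, a cell cycle transcription factor, was higher in adult, at 1.46, 1.27 and 2.56 FPKM. Of 12 tested regulators of imprints and DNA methylation, 11 were lower and 1 higher in adult than in kid (median -0.20, and 7 and 5 with size factors). The list holds TET enzymes as well as methyltransferases, so its genes do not all keep methylation in place. The maintenance methyltransferase DNMT1 was at 6.72, 5.01 and 4.66 FPKM and the corepressor TRIM28 at 40.5, 44.5 and 36.1 FPKM. The adult to kid ratio was 0.568 for SMCHD1 (0.509 to 0.634) and 0.624 for TET2 (0.576 to 0.676), the 2 of 12 genes at least 1.5-fold lower. That much lower were 6.64% of all tested entries.

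DLK1 and PEG3 are known in mice from cells that lie on or between the fibres, and in whole muscle fewer cells of a type and less RNA per cell cannot be told apart. The counts of cell type genes below stand against the same 62.5% of all tested entries, or 47.5% with size factors, and those of the endothelial, smooth muscle and satellite cell lists lie near it. In adult against kid, 14 of 14 fibroblast genes were lower (median -0.31; 11 of 14 with size factors), and their summed level was 1611 FPKM in kid, 1736 FPKM in youth and 1322 FPKM in adult. Gelsolin (GSN), the most abundant of them, stood at 492, 442 and 390 FPKM, while the collagen COL3A1 was highest in youth, at 221, 379 and 192 FPKM. Macrophage genes were lower in 9 of 9 (median -0.77), with sums of 79.5, 86.4 and 43.3 FPKM and the complement gene C1QB at 16.7, 19.4 and 9.34 FPKM. Both sums were lowest in adult and highest in youth, but of the fibroblast genes 9 of 14 were lower in youth than in kid (median -0.08). That count is near the share of all tested entries lower in youth than in kid, 64.3%. The collagen COL1A1 stood at 113, 183 and 106 FPKM in kid, youth and adult.

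Schwann cell genes were lower in adult than in kid in 6 of 7 (median -0.71), with sums of 253, 155 and 115 FPKM in kid, youth and adult. PMP22, a protein of peripheral myelin, stood at 102, 63.3 and 33.6 FPKM. Endothelial genes were lower in 7 of 10 (median -0.14, and 5 of 10 with size factors; sums 272, 243 and 239 FPKM), those of smooth muscle and pericytes in 8 of 12 (median -0.08, and 5 of 12 with size factors) and those of T and natural killer cells in 4 of 4 (median -0.26; sums 8.67, 11.3 and 5.91 FPKM). The Schwann cell list was lower at both steps, the order also seen for PEG3.

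Satellite cell genes were lower in adult than in kid in 6 of 11 (median -0.04, and 4 of 11 with size factors; sums 291, 272 and 269 FPKM in kid, youth and adult). PAX7, the marker of these stem cells, stood at 1.40, 0.901 and 1.97 FPKM and MYF5 at 1.91, 1.98 and 2.12 FPKM, neither of them lowest in adult. MYOG, a factor of differentiating muscle cells, was highest in adult, with an adult to kid ratio of 3.26 (2.75 to 3.88), and SDC4 was lowest there, with a ratio of 0.504 (0.481 to 0.528). Tendon and cartilage genes were higher in adult in 4 of 6 (median 0.48; sums 90.6, 85.0 and 125 FPKM), with the matrix protein COMP at 0.600, 0.667 and 7.96 FPKM. The 4 erythroid genes with an entry summed to 0.984, 0.812 and 1.17 FPKM. In the fibroblast, macrophage, Schwann cell, endothelial, smooth muscle, T and natural killer cell, satellite cell and tendon lists, 0 genes with an entry were at 0 in all 3 libraries. The part of these cell types in the values of DLK1, PEG3, PLAGL1 and SGCE was not tested.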

How the data were processed

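The authors deposited a table of FPKM, 1 column for each age group. Per the submitters' processing notes, the tools were FastQC, TopHat2 and DESeq, with no version or step attached. The sources used here do not give the build, the annotation or the counting of reads, nor how reads that fit several genes were counted, nor whether counting used the strand, so overlapping genes are uncertain. FPKM is relative to the mapped total, so abundant muscle genes can shift all others.

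Totals, gene lengths and whole reads were recovered from the FPKM steps with Python 3.11.15, numpy 2.4.6 and scipy 1.17.1. Reads were whole within 5e-05 of a read plus rounding for all 16054 entries above 0 in 3 libraries and for 1157 above 0 in 2. Where reads and length share a factor, fewer reads are returned and intervals are wider. The steps were tested on simulated reads. The recovered reads made up 95.3%, 94.9% and 96.3% of the totals in kid, youth and adult, and 1 read in 1 kb was worth 0.0632, 0.0670 and 0.0543 FPKM. Differences are log2(FPKM + 1), later minus earlier, among 12121 entries with a mean of at least 1 FPKM; ratios have Clopper-Pearson 95% intervals. By gene number 21743 entries matched the ARS1.2 gene table, and 12 list genes were added by product text.

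Members, lists and tests were chosen with earlier results of these data known. The genes named are all members and, by rule, the most abundant gene of each list and up to 3 tested genes with the largest difference; of the cell type lists a few of these are given, and other genes were chosen after their values were seen. The genes called most alike are the 3 nearest to each member. No reference sequence of the genes was used here. Alternatives covered pseudocounts, minimum levels and scalings.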

Additional observations from a re-analysis of the deposited data

How the results depend on the processing

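Of 72 recomputed counts and medians over the imprinted genes, 60 stayed within 1.5 times (counts) or within counting error (medians) and 12 moved, all 12 of them counts past a fold. The number at least 2-fold apart in adult against kid was 0, and became 1 with a pseudocount of 0.1 (PEG3) and 1 with no filter on low values (DLK1). The number at least 1.5-fold apart in adult against kid was 1, and became 3 with a pseudocount of 0.1, 2 with no filter, 2 with the same sum in each library, and 0 with a pseudocount of 5 or a mean of at least 5 FPKM. In adult against youth the 1.5-fold number was 1, and became 2 with a pseudocount of 0.1, 2 with no filter, and 0 with a pseudocount of 5 or a mean of at least 5 FPKM. In youth against kid it was 0, and became 1 with a pseudocount of 0.1. These shifts follow from how strongly each setting damps or removes low genes, except under the same sum, where SGCE passed 1.5-fold. Of 108 differences of single genes, 104 moved by less than their counting error, and 4 moved further: DLK1 with a pseudocount of 0.1 (-2.51 in adult minus kid, -2.33 in adult minus youth), PEG3 with a pseudocount of 5 (-0.40 in adult minus kid) and GRB10 with size factors (0.20 in adult minus kid). Adult minus kid and adult minus youth kept their sign for all 6 genes in the 6 alternatives of pseudocount and scaling. In youth minus kid, where these genes lay within counting error, the sign stayed negative in 5 of the 6 for DLK1 and SGCE and in 2 of 6 for PLAGL1. The gene lists and neighbours were recounted under 4 scalings, an alternative chosen after seeing the data, and the counts with size factors stand beside most lists. Over the 4 scalings, the number lower in adult than in kid ran between 17 and 22 of 28 other imprinted genes, 9 and 13 of 15 Notch genes, 10 and 16 of 19 insulin and IGF genes, 8 and 11 of 17 cell cycle genes, 5 and 9 of 12 sarcoglycan complex genes, 7 and 11 of 12 imprint regulators, 12 and 17 of 23 neighbours, 11 and 14 of 14 fibroblast genes, 5 and 9 of 10 endothelial, 5 and 8 of 12 smooth muscle, 4 and 7 of 11 satellite cell, 7 and 8 of 12 adipocyte, 3 and 4 of 4 T and natural killer cell, and 2 and 4 of 11 muscle fibre genes. It did not move for the macrophage (9 of 9), Schwann cell (6 of 7), tendon (2 of 6) and growth programme (2 of 6) lists. No paired analysis was possible because each stage had 1 library. Depth limits DLK1, with 7 reads in adult.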
